A study of Homo sapiens with 8 samples.

Results

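The 14-3-3 proteins are encoded in human cells by 7 genes: YWHAB (beta), YWHAE (epsilon), YWHAG (gamma), YWHAH (eta), YWHAQ (theta), YWHAZ (zeta) and SFN (sigma, also called stratifin). The family was taken as a closed list of symbols. All 7 were found by Ensembl identifier and GENCODE release 29 in both deposited tables, among 66206 rows in each, and all 7 passed the filter on low values in both. The rule uses no measured value. The study's aim is known here only from its title and design text, which concern the long noncoding RNA LY6K-AS in lung adenocarcinoma and in mitosis.

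14-3-3 proteins are dimeric adaptors. Each subunit has a groove that binds a phosphorylated serine or threonine in a client protein, and binding can hide a localisation signal, hold an enzyme inactive or bridge phosphosites. Clients include RAF kinases, FOXO transcription factors, YAP and the CDC25 phosphatases that start mitosis, so the family is best known as a brake or scaffold in growth signalling and in the G2/M checkpoint. SFN stands apart from the other members: it is expressed mainly in epithelial cells, is a p53 target, forms mainly homodimers and has been described as holding CDK1 and cyclin B in the cytoplasm after DNA damage.

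The start of SFN also looks different from the start of the targeted gene YWHAG in sequence, and both are printed because these are the members on which the results turn. The sequences come from the 250 bases before the start annotated by RefSeq (build GRCh38.p14) and are printed 5′ to 3′ on the gene's own strand, without the last 40 bases of the YWHAG window and the last 11 of the SFN window, which GENCODE places inside the first exon. Capitals mark the motif GGGCGG, the core of a GC box, on either strand (on the other strand it reads CCGCCC).
YWHAG, chr7:76359032-76359241, minus strand: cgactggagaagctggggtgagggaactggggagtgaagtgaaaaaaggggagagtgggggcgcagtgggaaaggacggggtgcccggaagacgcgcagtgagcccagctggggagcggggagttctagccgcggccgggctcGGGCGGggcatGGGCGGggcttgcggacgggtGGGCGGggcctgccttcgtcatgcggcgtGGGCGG
SFN, chr1:26862899-26863137, plus strand: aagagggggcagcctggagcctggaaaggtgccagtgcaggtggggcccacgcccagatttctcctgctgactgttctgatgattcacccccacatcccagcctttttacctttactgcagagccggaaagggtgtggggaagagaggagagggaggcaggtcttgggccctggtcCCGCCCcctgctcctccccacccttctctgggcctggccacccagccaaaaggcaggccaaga
The whole YWHAG window of 250 bases held 23 CpG dinucleotides and 4 matches to GGGCGG. The SFN window held 3 CpG dinucleotides and 1 match. Of 35114 RefSeq promoter windows of this length, 42.6% held at least 1 GGGCGG, and the median window held 11 CpG. Windows were matched for 6 of the 7 genes. In YWHAB, YWHAE, YWHAH and YWHAQ they held between 21 and 34 CpG, as in YWHAG. On either strand CCAAT was found in YWHAB and YWHAQ and in 32.0% of all windows, TATAAA in YWHAH and in 10.7%, and TGACGTCA, the letters of a cyclic AMP response element, in YWHAH and in 1.65%. CACGTG and TTTGAA were found in none of the 6, against 6.34% and 13.3% of all windows. These matches describe letters only, and no measurement here bears on binding.

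RNA was measured by sequencing in 8 libraries of A549, a cell line from a human lung adenocarcinoma, with 2 libraries in each of 4 groups. The LNA libraries were given 25 pmol of gapmer, an antisense oligonucleotide with locked nucleic acid ends that leads RNase H to its target, either scramble or against LY6K-AS, and the siRNA libraries were given 40 pmol of siRNA, either scramble or against YWHAG. All were grown in DMEM with serum and antibiotics and transfected with RNA-iMAX, so the controls carry a transfected oligonucleotide too. The LY6K-AS libraries are titled LNA1 and LNA3 and the YWHAG libraries si1 and si2, which may be separate oligonucleotides, and no label tells if the libraries of a group were cultured separately. The p-values therefore reflect the spread among these libraries alone, and that spread may be technical.

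The reads behind each library, worked out from the values, numbered 26.2 to 34.0 M in the LNA table and 33.7 to 34.6 M in the siRNA table (M, 1e6 reads), and the 7 genes together had 58093 to 122571 reads per library. Mitochondrially encoded genes took 4.12 to 8.43% of reads in the LNA libraries, lowest in LY6K-AS knockdown 2, and 13.99 to 18.2% in the siRNA libraries. The 9 epithelial and A549 markers, among them keratins 8 and 18 and the NRF2 target AKR1B10, were at 1.14 RPKM or more in every library. Of 11 immune, endothelial and fibroblast markers only COL1A1 passed the filter. Values are RPKM, reads per kilobase of merged exons and per M reads, and the 2 tables were normalized separately.

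At baseline the 7 genes were all expressed. In the scramble LNA controls the order was YWHAQ (216.5 ± 2.37 RPKM, mean ± SD, n = 2), SFN (162.5 ± 2.80), YWHAG (144 ± 1.90), YWHAH (58.6 ± 0.0365), YWHAB (51.5 ± 0.309), YWHAZ (43.3 ± 1.12) and YWHAE (21.7 ± 0.569). No neighbours in that order overlapped between libraries. In the scramble siRNA controls YWHAQ was again highest (259 ± 5.50 RPKM), followed by YWHAG (160 ± 3.74), YWHAE (120 ± 15.8), YWHAZ (116 ± 2.42), SFN (89.9 ± 5.40), YWHAH (61.9 ± 2.52) and YWHAB (60.8 ± 1.60). There YWHAE and YWHAZ overlapped, with 131 and 109 RPKM against 117.5 and 114, and so did YWHAH and YWHAB. YWHAQ was above all but 0.663 to 0.734% of the genes at 0.5 RPKM or more in the 4 control libraries. This order rests on the length used: divided by the longest annotated transcript in place of merged exons, YWHAG had rank 4 and not rank 2 in both siRNA controls. In the LNA table as deposited, where the authors' RPKM is divided by the genomic span with introns, SFN (161 and 165 RPKM in the controls), which has a single exon and so nearly the same length either way, exceeded YWHAG (16.6 and 16.9) by far more than it does per kilobase of exons.

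**Figure D1:**
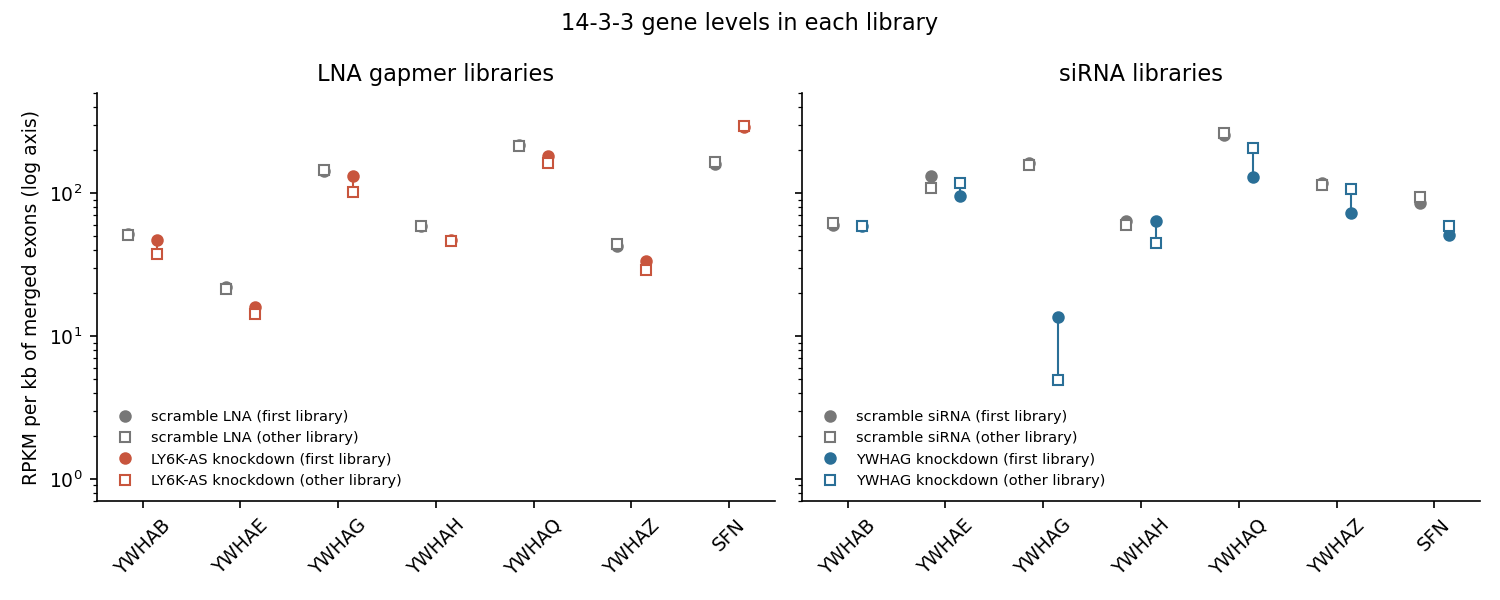
Level of each 14-3-3 gene in RPKM per kilobase of merged exons, on a log axis, in each library, LNA libraries on the left and siRNA libraries on the right; filled circles are the lower-numbered and open squares the higher-numbered library of a group, joined by a line. YWHAG goes from the second level in the siRNA controls to the bottom of the family in the YWHAG knockdown (13.5 and 4.91 RPKM), while SFN moves to the top in the LY6K-AS knockdown (292 and 295 RPKM).

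YWHAE and YWHAZ did not have the same level in the controls of the 2 tables, although both are scramble-treated A549 cells. YWHAE was 5.53-fold higher in the siRNA controls (120 against 21.7 RPKM) and YWHAZ 2.67-fold higher (116 against 43.3 RPKM). SFN was lower there, at 0.553 of its LNA control level. The other 4 members lay between 1.06-fold (YWHAH) and 1.20-fold (YWHAQ). Over the 12861 genes tested in both tables the median log2 difference was −0.13, and only 0.451% of genes had a difference as high as that of YWHAE (2.41) and 1.91% as high as that of YWHAZ (1.40). The lengths had been brought to merged exons in both tables before these levels were set side by side, and the median over all genes gives the shift they share. The tables also differ in the kind of oligonucleotide, which cannot be told apart from other differences between them. YWHAE and YWHAZ have annotated pseudogene copies, as do YWHAB and YWHAQ, which differed by 1.18-fold and 1.20-fold. How reads that match several places were counted is not known here for either table and cannot be read from RPKM, so its part in the YWHAE and YWHAZ differences was not tested, and their levels, and their place in the order above, are uncertain for that reason. PPIA, a reference gene with many pseudogenes that is given here after its values were seen, had 31.4 and 30.9 RPKM in the LNA controls and 208 and 203.2 RPKM in the siRNA controls. Other reference genes, also picked after their values were seen, varied. TUBB had 16.7 and 17.4 RPKM, then 47.9 and 45.8. GAPDH had 786.7 and 755.6, then 828.7 and 925.3, and ACTB had 1184 and 1301, then 872.2 and 959.2. The part of pseudogenes in these values was not tested. The 20 annotated 14-3-3 pseudogenes themselves summed to 68 and 75 reads in LNA controls 1 and 2 and to 80 and 73 in siRNA controls 2 and 3. How reads shared between a gene and its copies were assigned is not known, and the part of read counting in these sums was not tested. Changes are measured only within a table.

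**Figure D2:**
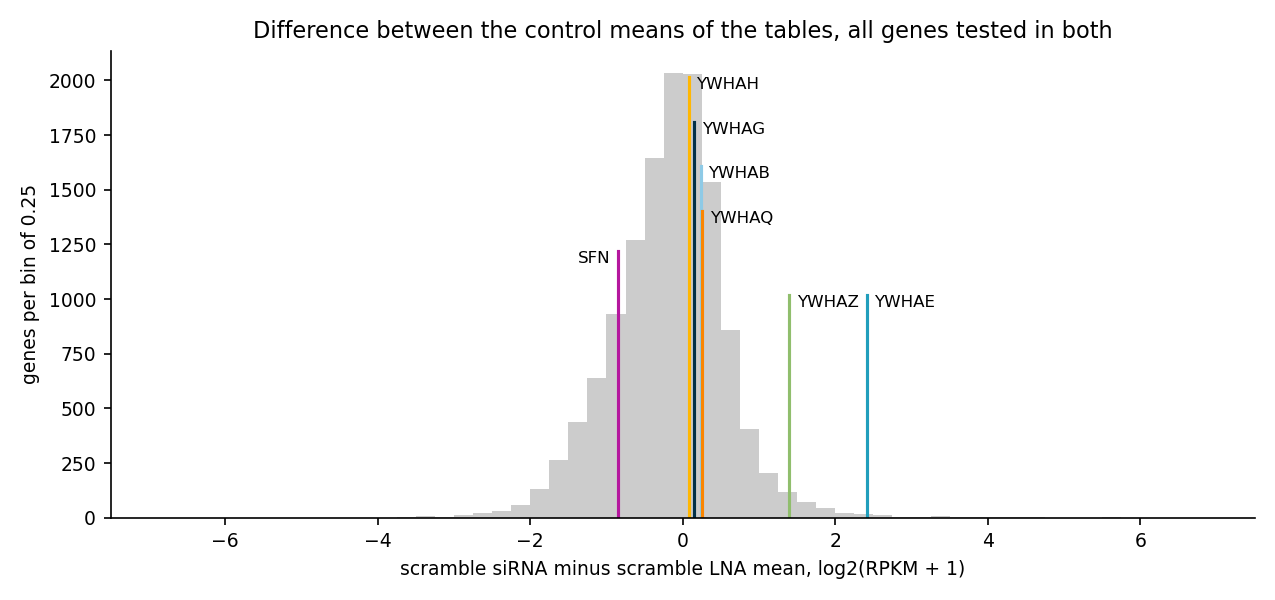
Number of genes (vertical axis) by the difference between the control means, scramble siRNA minus scramble LNA on the log2(RPKM + 1) scale (horizontal axis), for 12861 genes tested in both tables, with the 7 family members as coloured lines. YWHAE (2.41) and YWHAZ (1.40) lie in the right tail, SFN (−0.85) lies left of the centre, and the other members sit near 0.

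The siRNA comparison set YWHAG siRNA against scramble siRNA, and the target itself comes first as a check of the labels. YWHAG (ENSG00000170027.6, hg38 chromosome 7, 76326794 to 76359031, minus strand, protein-coding) stood at 162.8 and 157.5 RPKM in siRNA controls 2 and 3 and at 13.5 and 4.91 RPKM in YWHAG knockdowns 1 and 2. These values rest on 21049, 20358, 1753 and 621 reads. The knockdown libraries thus kept 8.445% and 3.065% of the control mean, far below both controls. The log2 change, on the log2(RPKM + 1) scale, was −4.12 ± 0.43 (SE), the largest of the family. It did not pass over all genes in the fit to these 4 libraries (limma adjusted p = 0.130), in which 0% of 13903 genes passed in either direction, and 0 of the 7 members passed with voom. With the spread pooled over all 8 libraries it fell (limma adjusted p = 0.0109).

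No paralog was higher on average after YWHAG knockdown. SFN had 86.1 and 93.7 RPKM in control libraries and 50.7 and 58.9 in knockdown libraries, below both controls in both. YWHAQ had 255 and 263 RPKM in control libraries, then 129 and 208 in knockdown libraries, also below both controls but with a wide gap between the knockdown libraries. YWHAZ stood at 117.5 and 114 RPKM and then at 72.6 and 107.5. YWHAB lay just below its controls, with 59.7 and 61.9 RPKM and then 58.97 and 58.8. YWHAE (131 and 109 RPKM, then 96.3 and 118) and YWHAH (63.7 and 60.1, then 63.7 and 44.7) overlapped between the groups. Of the 6 paralogs 4 were thus below both controls in both knockdown libraries and 0 above. Over all genes tested, 30.8% were below both controls and 20.4% above (51.2% without overlap), and 57.6% had a log2 change below 0.

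The changes of the paralogs were smaller than that of the target by far. SFN was at −0.71 ± 0.14 (log2 change ± SE), YWHAQ at −0.65 ± 0.25, YWHAZ at −0.39 ± 0.22, YWHAH at −0.21 ± 0.20, YWHAE at −0.16 ± 0.18 and YWHAB at −0.05 ± 0.12. None passed over all genes in the 4-library fit (limma adjusted p lowest for SFN, 0.198, and highest for YWHAB, 0.879), and SFN and YWHAQ were at an unadjusted p under 0.05 (0.00459 and 0.0472 from limma), as were 8.9% of all genes in that direction and 16.4% in either. With the spread pooled over 8 libraries SFN fell too (limma adjusted p = 0.0456), in a fit where 0.575% of 12861 genes were called lower and 1.09% higher, 1.66% in all. The 95% intervals of this fit had upper ends of 1.21-fold for YWHAB, 1.22-fold for YWHAE, 1.24-fold for YWHAH and 1.12-fold for YWHAZ. Those of YWHAQ (0.408 to 0.992) and SFN (0.473 to 0.793) lay below 1, YWHAQ only just. YWHAQ was at −0.60 with voom and −0.59 with the GC trend removed, fits for which no interval is given. The intervals are not adjusted for the number of genes. YWHAB was at 0.02 with voom and with the GC trend removed, and so had no settled direction. The median of the 6 paralogs was −0.30, against −0.05 over all genes tested. In bulk RNA fewer cells with a transcript and less of it per cell cannot be told apart.

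The paralogs did not have the same levels in the 2 YWHAG knockdown libraries. Library 1, which kept more YWHAG, had less YWHAQ (49.97% of the control mean against 80.6% in library 2), less YWHAZ (62.7% against 92.9%) and less YWHAE (80.1% against 98.3%). YWHAH went the other way, at 103% in library 1 and 72.2% in library 2. YWHAB was at 97% and 96.7%, and SFN at 56.4% and 65.6%. Of all genes tested only 3.78% had a difference between the libraries further below that of YWHAQ (−0.68, library 1 minus 2, log2), and 6.04% below that of YWHAZ (−0.56). Without knockdown 2 the YWHAQ change was −0.995 and without knockdown 1 it was −0.31. The SFN change was −0.81 and −0.60 in the same fits, so SFN was lower by a similar amount in both libraries.

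**Figure D3:**
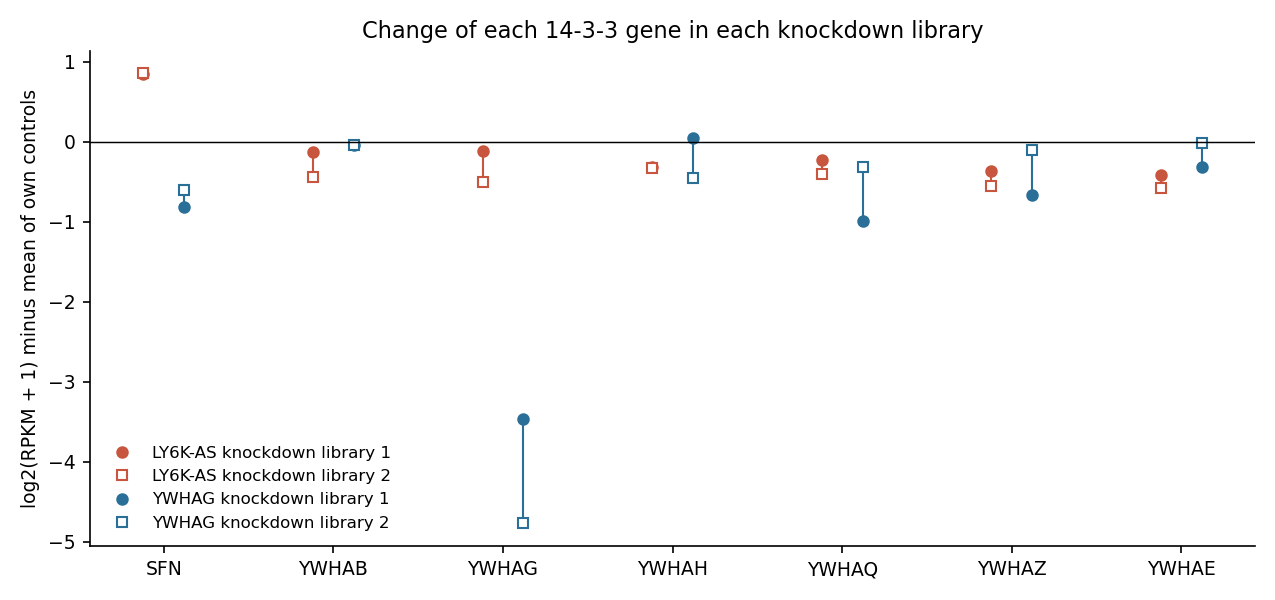
Difference of each knockdown library from the mean of its own controls on the log2(RPKM + 1) scale (vertical axis) for each 14-3-3 gene; circles are library 1 and squares library 2, red for LY6K-AS and blue for YWHAG knockdown, joined by a line. SFN is above 0 in both red libraries (0.84 and 0.86) and below 0 in both blue ones (−0.81 and −0.60), and YWHAG is at −3.47 and −4.77 in the blue libraries.

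Summed over the family, transcripts were lower after YWHAG knockdown. The 7 genes summed to 876 and 859 RPKM in the siRNA controls and to 485 and 601 in the knockdowns, a change of −37.4% in the mean. The 6 genes other than YWHAG summed to 713 and 701 RPKM and then to 472 and 596, so that part was lower too, with a change of −24.5% in the mean, −33.3% in library 1 and −15.65% in library 2. The share of YWHAG in the family sum went from 18.6% and 18.3% to 2.79% and 0.816%, and its rank from second to last in both libraries. YWHAQ stayed first on exon length, at 26.65% and 34.66% of the sum, but second to YWHAE in library 1 when the longest transcript is the length. With 2 libraries against 2 no exact permutation test of a sum can reach 0.05, so these sums are given as values.

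**Figure D4:**
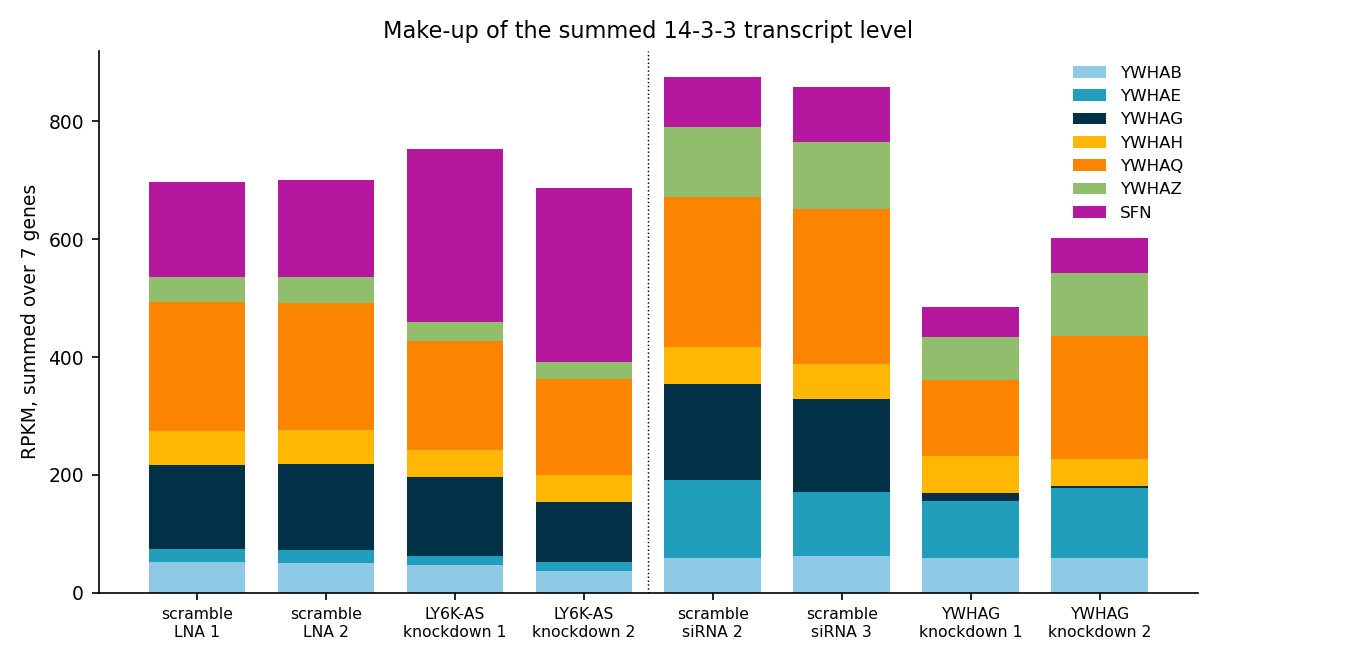
Summed level of the 7 14-3-3 genes in RPKM (bar height, from 0) in each library, split by gene; the dotted line separates the LNA and siRNA tables, which were normalized separately. The LY6K-AS knockdown bars (752 and 687 RPKM) stay near their controls (696 and 700) with a larger SFN part, and the YWHAG knockdown bars (485 and 601) are lower than theirs (876 and 859).

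After LY6K-AS knockdown the make-up of the family differed more than its total. SFN (ENSG00000175793.11, hg38 chromosome 1, 26863138 to 26864457, plus strand, protein-coding) stood at 160.5 and 164.5 RPKM in LNA controls 1 and 2 and at 292 and 295 in LY6K-AS knockdowns 1 and 2, far above the controls and nearly equal in both. Its share of the family sum went from 23.1% and 23.5% to 38.8% and 42.9%, and it passed YWHAQ to become the first of the 7 in both knockdown libraries. YWHAQ went from 218 and 215 RPKM to 184 and 163, and YWHAG from 142.6 and 145.3 to 132.6 and 101.5. YWHAZ was at 42.6 and 44.1 RPKM and then 33.5 and 29.2, and YWHAE at 22.1 and 21.3 and then 16.0 and 14.2. YWHAH (58.6 in both controls, then 47.1 and 46.4 RPKM) and YWHAB (51.7 and 51.3, then 47.1 and 37.7) were lower as well. Both knockdown libraries lay below both controls in all 6, and above them in SFN. Over all genes tested 30.5% lay below and 31.4% above (62% without overlap), and 49.7% had a log2 change below 0.

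The sum of the 7 was 696 and 700 RPKM in the LNA controls and 752 and 687 in the knockdowns, a mean difference of 3.05% that is smaller than the gap between the knockdown libraries and turned to −1.625% without knockdown 1. It was −0.93% with the longest transcript as length. YWHAG itself kept 92.1% of its control mean in knockdown 1 and 70.5% in knockdown 2, a difference (0.38, library 1 minus 2, log2) above that of 87.8% of genes tested, and its share of the sum went from 20.5% and 20.8% to 17.6% and 14.8%. YWHAH and SFN were the members with the closest knockdown libraries (80.3% and 79.2% for YWHAH, 180% and 182% for SFN).

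In the 4-library fit 0 of the 7 passed over all genes after LY6K-AS knockdown, as did 0% of 14662 genes, and 5 of the 7 were at an unadjusted p under 0.05 from limma, against 25.3% of all genes. With voom 0 of the 7 passed too. The 95% intervals of the fold excluded 1 for SFN (1.51 to 2.15-fold), YWHAE (0.589 to 0.850), YWHAZ (0.597 to 0.887), YWHAH (0.687 to 0.934) and YWHAQ (0.653 to 0.981), and included it for YWHAB (0.639 to 1.06) and YWHAG (0.602 to 1.08). These intervals are not adjusted for the number of genes. With the spread pooled over 8 libraries SFN rose (log2 change 0.85, limma adjusted p = 0.0461), in a fit where 0.194% of 12861 genes were called higher and 0.303% lower, 0.498% in all, and the other 6 did not pass. Changes went with transcript GC content across genes in this comparison: the median log2 change was 0.33 for transcripts of 60% GC or more and −0.15 for those under 45%, and SFN has 62.8% GC while YWHAB, YWHAQ and YWHAZ have 43.2, 43.55 and 40.7%. With the GC trend removed in the 4-library fit SFN was at 0.53 (limma adjusted p = 0.138, against 0.103 with the trend kept). YWHAQ was then at −0.20, YWHAZ at −0.30 and YWHAB at −0.15. The fit with pooled spread was not repeated with the GC trend removed.

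The response of SFN to the knockdowns differed in direction. It was 0.85 after LY6K-AS and −0.71 after YWHAG knockdown, and the difference of the changes, tested in all 8 libraries with each change taken within its own table, was 1.56 ± 0.17 (SE, 95% interval 1.15 to 1.96, limma adjusted p = 0.0443). Higher was seen in 2 of 2 LY6K-AS libraries and lower in 2 of 2 YWHAG libraries. SFN was the only member of the 7 called in this test, in which 0.179% of 12861 genes passed, 0.0467% with the higher change after LY6K-AS knockdown and 0.132% with the lower. This test was not refitted with the GC trend removed. With that trend removed within each table, SFN was at 0.53 after LY6K-AS and −0.72 after YWHAG knockdown. Leaving out either LNA control, either siRNA control or LY6K-AS knockdown 2 ended the call (differences of 1.54, 1.57, 1.62, 1.495 and 1.55). Without LY6K-AS knockdown 1, YWHAG knockdown 1 or YWHAG knockdown 2 the difference was 1.56, 1.45 or 1.66. In those last fits a knockdown library stood alone, so its group lent no spread of its own. YWHAG came next (3.81 ± 0.52, limma adjusted p = 0.05265), as the siRNA target. For the other 5 the difference did not pass, with intervals of −0.67 to 0.20 for YWHAB, −0.84 to 0.17 for YWHAE, −0.67 to 0.45 for YWHAH, −0.38 to 1.04 for YWHAQ and −0.69 to 0.55 for YWHAZ.

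The partners of the family were read from lists of 14-3-3 clients, of kinases that phosphorylate the binding sites and of regulators of SFN. Of 40 clients measured after YWHAG knockdown 11 were higher and 29 lower (median −0.14, against −0.05 over all genes), with 2 higher and 2 lower at an unadjusted p under 0.05, where 7.51% and 8.9% of all genes were, and 0 called. The smallest p belonged to the histone deacetylase HDAC4 (1.15 and 1.21, then 0.602 and 0.486 RPKM), the ubiquitin ligase CBL (2.00 and 1.61, then 4.05 and 2.97 RPKM) and MDM4, an inhibitor of p53 (2.89 and 3.06, then 2.01 and 1.80 RPKM). Of 28 measured site kinases 22 were lower (median −0.16). Over all genes 57.6% were lower, the share to set beside both lists. Of the site kinases 6 were lower at an unadjusted p under 0.05, as were 8.9% of all genes, and 0 were called. PIM1 (9.37 and 9.86, then 3.24 and 5.59 RPKM), SGK1 and MARK2 came first. After LY6K-AS knockdown 21 clients were higher and 19 lower (median 0.06), where 49.7% of all genes were lower. Those with the smallest p were the mitotic regulators CDC25C (4.10 and 4.47, then 1.85 and 1.84 RPKM), CDC25A and WEE1. With pooled spread CDC25C fell (log2 change −0.89, limma adjusted p = 0.04515). The site kinases had a median of −0.05, with MARK4, PRKD2 and LATS2 at 0.64, 0.75 and 0.42.

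SFN is a p53 target, and its level was set beside 25 others. After LY6K-AS knockdown all 25 were higher (median 0.74), 23 at an unadjusted p under 0.05 in that direction against 13.6% of all genes, beside 0.85 for SFN. Gene lists were not summarised with the GC trend removed, a step that took SFN to 0.53 in this comparison. TP53INP1, CDKN1A (p21) and GADD45A had the smallest p, and each rose with pooled spread (limma adjusted p = 0.04515). After YWHAG knockdown the same 25 had a median of 0.14, with 15 higher and 10 lower, where 57.6% of all genes were lower. Of the 25, 2 were higher at an unadjusted p under 0.05, as were 7.51% of all genes, and 0 were called. There CDKN1A stood at 33.7 and 34.3 RPKM and then at 43.3 and 51.7, above both controls in both libraries, while SFN was below both. Over all genes tested 20.4% lay above both controls and 30.8% below. The death receptor FAS (0.56) and GADD45A (0.35) were the other 2 with the smallest p. Of 8 regulators of SFN the Polycomb methyltransferase EZH2 had the smallest p in both comparisons (13.1 and 11.9, then 6.19 and 6.27 RPKM after LY6K-AS knockdown; 11.9 and 10.3, then 7.48 and 7.73 RPKM after YWHAG knockdown). It fell with pooled spread after LY6K-AS knockdown (limma adjusted p = 0.04515) and did not pass after YWHAG knockdown (0.0918). The DNA repair gene BRCA1 was at −0.90 and the DNA methyltransferase DNMT1 at −0.33 after LY6K-AS knockdown, and MDM2, the ubiquitin ligase of p53, at −0.33 after YWHAG knockdown. TP63, a p53 relative on the list of SFN regulators, was at 0.852 and 0.958 and then 0.474 and 0.497 RPKM after YWHAG knockdown. The 9 mitotic entry genes were all lower after LY6K-AS knockdown (median −0.91), as were 49.7% of all genes, with CCNB2 at −1.12 and PLK1 at −0.91. After YWHAG knockdown their median was −0.24, against −0.05 over all genes. In that comparison cyclin B1 (CCNB1) had the smallest p (118 and 106, then 81.5 and 80.1 RPKM), before AURKA at −0.39 and CDC25C at −0.29. These lists were chosen with results of these data known.

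**Figure D5:**
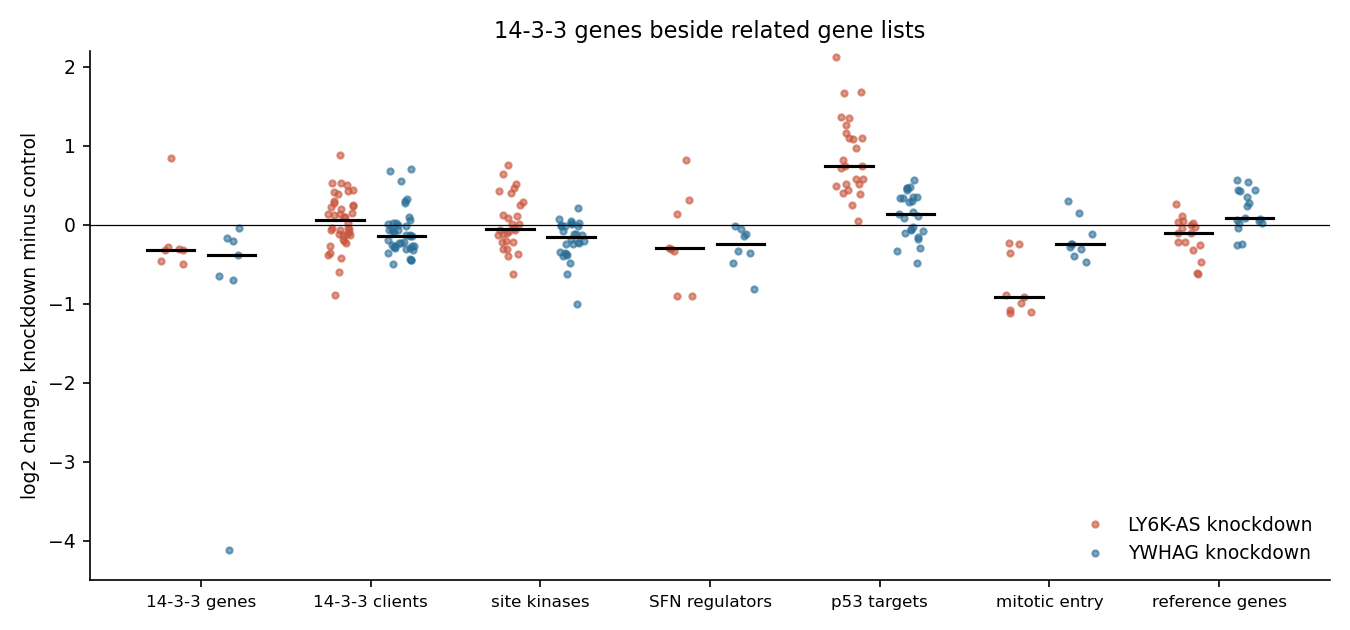
Log2 change, knockdown minus control on the log2(RPKM + 1) scale (vertical axis), of each measured gene of 7 lists, red after LY6K-AS and blue after YWHAG knockdown, with the list median as a black bar; points are spread sideways for legibility. The p53 targets sit above 0 in red (median 0.74) and near 0 in blue (0.14), and SFN is the 1 family member above 0 in red.

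YWHAZ is widely used as a reference gene for quantitative PCR, and here it was lower on average in both knockdowns. Its log2 change was −0.46 after LY6K-AS and −0.39 after YWHAG knockdown. Neither passed over all genes (limma adjusted p = 0.119 and 0.427). With the GC trend removed the changes were −0.30 and −0.33. The unadjusted interval of the fold excluded no change after LY6K-AS knockdown (0.597 to 0.887) and included it after YWHAG knockdown (0.521 to 1.124). The YWHAG knockdown libraries kept 62.7% and 92.9% of the control mean. Of 17 other common reference genes 14 had a smaller absolute change after LY6K-AS and 12 after YWHAG knockdown. These counts compare the log2 changes alone, without their spread. The reference genes ranged from −0.62 (TUBB) to 0.26 (RPL13A) after LY6K-AS knockdown, with PPIA, HPRT1 and TFRC at −0.47, −0.61 and −0.33. After YWHAG knockdown they ranged from −0.25 (TUBB) to 0.56 (GAPDH), with TFRC at 0.54 and RPLP0 at 0.44.

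The genes whose pattern was most like that of SFN over the 8 libraries, by root mean square difference on the log2 scale after subtracting each table's control mean, were ABHD17C (0.117), RDH10 (0.119) and NECAB2 (0.121), each higher in both LY6K-AS libraries and lower in both YWHAG libraries. For YWHAG no gene came close: the nearest, HAS3, PTGES and TMX1, differed by 1.21, 1.29 and 1.33, and their lowest library was at −2.25, −2.62 and −2.23 where YWHAG was at −4.77.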

How the data were processed

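RNA was sequenced in 8 A549 libraries. The authors deposited RPKM in 2 tables. Per the submitters' processing notes, hg38, STAR, Subread, featureCounts and Picard were used, without versions. Whether counting used strand was not stated. Deposited RPKM multiplied by end minus start of the gene (LNA table) or by merged exon length (siRNA table) gave whole reads for 100% of values of genes with the same GENCODE 29 version, within 0.05 reads, so LNA values were rescaled to merged exon length. Rows without a match (9151) were left out of the LNA tests. siRNA control columns are numbered 2 and 3, and the labels 1 and 2, so each was given a group but no sample.

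Tests used limma 3.58.1 (R 4.3.3) on log2(RPKM + 1) with the trend option, genes at 0.5 RPKM or more in at least 2 of 4 libraries, two-sided, Benjamini-Hochberg over all genes, threshold 0.05; differences between knockdowns used all 8 libraries. The fit was tested on simulated data with the same spread in control and knockdown libraries. The real knockdown pairs differed more (SD of log2 differences 0.396 for LY6K-AS, 0.434 for YWHAG) than their control pairs (0.158 and 0.195). That test therefore does not tell how many real changes the fit finds here. The members, lists and rules were chosen with earlier results of these data known. The rule for named genes took all 7 members, the 3 genes of each list with the smallest p per comparison, and the 3 nearest patterns to SFN and YWHAG; others were named after their values were seen (TUBB and RPL13A). YWHAH shares 105 exon bases with the same-strand gene Z82190.2. The replicate numbers of the LNA libraries were checked, but with 2 libraries per group the check cannot tell if same-numbered libraries are paired. Alternatives for each knockdown's change covered pseudocount, filter, scaling, GC, voom, pooled spread, a replicate block (LNA only) and each library left out. Length was varied for the family sums and shares. The difference between the knockdowns was refitted only with other pseudocounts and with each library left out.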

Additional observations from a re-analysis of the deposited data

Results flagged for a closer look

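The change of SFN differed between the knockdowns by 1.56 (log2, LY6K-AS minus YWHAG, SE 0.17, limma adjusted p = 0.0443), since it was higher in both LY6K-AS libraries and lower in both YWHAG libraries relative to their own controls. The SFN controls themselves were at 162.5 RPKM in the LNA table and 89.9 RPKM in the siRNA table, and the part of the oligonucleotide type in this difference was not tested. Nor was the difference refitted with the GC trend removed, a step that took the SFN change after LY6K-AS knockdown from 0.85 to 0.53.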

How the results depend on the processing

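With the spread pooled over 8 libraries 1 of the 7 genes was called after LY6K-AS knockdown and 2 after YWHAG knockdown, against 0 and 0 in the 4-library fits. Leaving out 1 library at a time gave 0 to 7 called after LY6K-AS knockdown: 7 without knockdown 1 and 4 without knockdown 2. Those fits lend the spread of the controls to a knockdown library that stands alone, and they called 7725 and 4350 of all genes. On leaving out 1 library, the median of the 7 after YWHAG knockdown ranged from −0.67 (without knockdown 2) to −0.31, against −0.39. That median counts the target YWHAG. Without the target the median ranged from −0.49 (without knockdown 2) to −0.21 (without knockdown 1), against −0.30. The SFN difference between the knockdowns ranged from 1.45 (without YWHAG knockdown 1) to 1.66 (without YWHAG knockdown 2) on leaving out 1 library, against 1.56. Calls in those fits are not compared, because a group left with 1 library lends no spread of its own. The summed level after LY6K-AS knockdown ranged from −1.625 to 7.73% when a library was left out and was −0.926% with the longest transcript as length, a choice made after seeing the data. YWHAB after YWHAG knockdown was at 0.015 with voom and 0.016 with the GC trend removed. When a library was left out, YWHAH after YWHAG knockdown ranged from −0.46 to 0.042, and the differences between the knockdowns from −0.36 to 0.14 for YWHAH, −0.011 to 0.67 for YWHAQ and −0.35 to 0.21 for YWHAZ.

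Same-numbered LNA libraries had a deviation correlation of 0.0797, which with 2 libraries per group cannot tell if they are paired. With the LNA replicate numbers as a replicate block 0 of the 7 were called and the median stayed at −0.32 (SFN limma adjusted p = 0.0824). In the siRNA table, and there only, no such fit was made. No paired analysis was possible because its control columns carry numbers other than the labels'. The 7 genes rested on 621 to 34643 reads each per library, and counting error was not separated from the spread between the 2 libraries of a group.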
